A study of Mus musculus with 20 samples.

Results

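The 44 genes of the Wnt pathway described here were chosen by symbol from 45706 genes in the deposited table, and all 44 were found. They comprise 5 Wnt ligands, 2 secretion factors, 13 receptors, 3 transducers of the Dishevelled family, 6 members of the destruction complex, 9 genes for beta-catenin and its nuclear partners, and 6 inhibitors. The secreted decoy Sfrp1 was left out of the members by the rule that chose them. RNA was sequenced from bone marrow cells that had been sorted by flow cytometry from 8-week-old C57BL/6 mice. The sorted populations were the multipotent progenitor types 2 and 3, called MPP2 and MPP3, and long-term haematopoietic stem cells, called LT-HSC. There were 3 Hopx-knockout (KO) and 3 Hopx-wildtype (WT) libraries of MPP2, 3 KO and 4 WT libraries of MPP3, and 3 KO and 4 WT libraries of LT-HSC. The labels name no treatment, and the sources used here do not give the knockout allele, the sort markers or the animal behind each library. Libraries of one group or of different populations may therefore share an animal or a pool, and each p-value below measures the spread between libraries alone. Sex was inferred for each library from Xist against Y-linked transcripts. By this rule 6 of the 9 KO libraries and 3 of the 11 WT libraries were female. With this inferred sex as a covariate 0 members were called in KO against WT.

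Wnt ligands are lipid-modified by the acyltransferase Porcn, carried to the cell surface by Wls and bound by Frizzled receptors together with Lrp5 or Lrp6. Dishevelled proteins then inactivate the destruction complex of Apc, Axin, Gsk3 and Csnk1a1, so that beta-catenin (Ctnnb1) accumulates and acts with the TCF/LEF factors Tcf7, Lef1, Tcf7l1 and Tcf7l2. Ryk, Ror1 and Ror2 are co-receptors with roles in signalling that does not pass through beta-catenin. In bone marrow the pathway is known for dose-dependent effects on stem cell maintenance, and Hopx, an atypical homeodomain protein, is known to restrain Wnt signalling in heart cells.

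Between 11163345 and 15189909 reads per library fell in genes, and the 44 members took 0.0976 to 0.133% of them in MPP2, 0.107 to 0.134% in MPP3 and 0.125 to 0.15% in LT-HSC. Hopx had no reads in any KO library, and reads in 10 of the 11 WT libraries. The library labelled WT LT-HSC replicate 4 had none, and results that rest on it carry that doubt. Cell surface genes differed between the labelled populations. Slamf1 (CD150) had a normalized count of 407 to 933 in MPP2, 0 to 32.5 in MPP3 and 741 to 1246 in LT-HSC. Flt3 had 94.4 to 4080 in MPP2, 6518 to 13242 in MPP3 and 159 to 863 in LT-HSC. A list of 12 stem cell markers summed to 4499 to 13969 in MPP2, 5259 to 13141 in MPP3 and 15915 to 25238 in LT-HSC. The 3 libraries that stood apart, as named below, include this one for its lack of Hopx reads. The others are KO LT-HSC replicate 1 and WT MPP2 replicate 3, for the sums given next. Libraries also differed in transcripts of other lineages. The B-lineage list of 11 genes summed to 5885 in KO LT-HSC replicate 1, with 1 gene at 0, against 608 to 922 in the other LT-HSC libraries, with 4 to 8 genes at 0. The early lymphoid list of 9 genes summed to 189600 in WT MPP2 replicate 3, against 282 to 1127 in the other MPP2 libraries. The immunoglobulin gene Ighm alone made up 176989 of that sum. Dntt was at 7258 and Flt3 at 4080 there, against 0 to 79.0 and 94.4 to 410 in the other MPP2 libraries. In MPP3 the same list summed to 12861 to 40396. A list of 9 neutrophil genes summed to 25637 in KO LT-HSC replicate 1, 17408 in WT LT-HSC replicate 2, 8140 in WT MPP2 replicate 2, and 26483 and 19575 in WT MPP3 replicates 2 and 3, against at most 976 in the other 15 libraries. The myeloid list of 11 genes summed to 20759 and 27939 in those 2 WT MPP3 libraries, against 113090 to 152400 in the other MPP3 libraries. In MPP2 it summed to 3033, 25549 and 2052 in KO and to 37621, 1670 and 77143 in WT. The erythroid list of 10 genes summed to 25901 in KO LT-HSC replicate 2, against 2477 to 5323 in the other LT-HSC libraries. It ranged from 7986 to 79790 in MPP2 and from 610 to 27262 in MPP3. Without the 5 libraries high in neutrophil transcripts, Ryk (MPP3 against LT-HSC), Wls and Porcn (MPP2 against LT-HSC) were still called, and Tcf7l1 was not (limma adjusted p = 0.198). In bulk RNA, fewer cells of a type and less RNA per cell cannot be told apart.

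The members spanned a wide range of levels, and the intracellular core of the pathway was read far more than its ligands. Per kilobase of exon, the mean normalized count over 20 libraries was highest for Ctnnb1 at 655, followed by Csnk1a1 (casein kinase 1 alpha, which primes beta-catenin for degradation) at 502 and Wls at 224. Axin1, the scaffold of the destruction complex, followed at 139, the Dishevelled gene Dvl2 at 136, the kinase Gsk3b at 115 and the chromatin-binding co-activator Pygo2 at 89.99. Neighbours in this order from Axin1 to Gsk3b lay close together relative to their spread, with SDs over libraries of 0.54, 0.31 and 0.46 on the log2 scale. Among receptors the order of the mean normalized count per kilobase depended on the population. Lrp6 led in MPP2 at 27.3, Fzd6 in MPP3 at 30.1 and Ryk in LT-HSC at 65.6, where Ryk was at 19.4 in MPP2 and 5.39 in MPP3. The ligands were the lowest class, from 1.22 per kilobase for Wnt10a down to 0.0171 for Wnt5a. Of the 44 members, 18 had reads in all 20 libraries and 9 in 5 libraries or fewer.

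**Figure D1:**
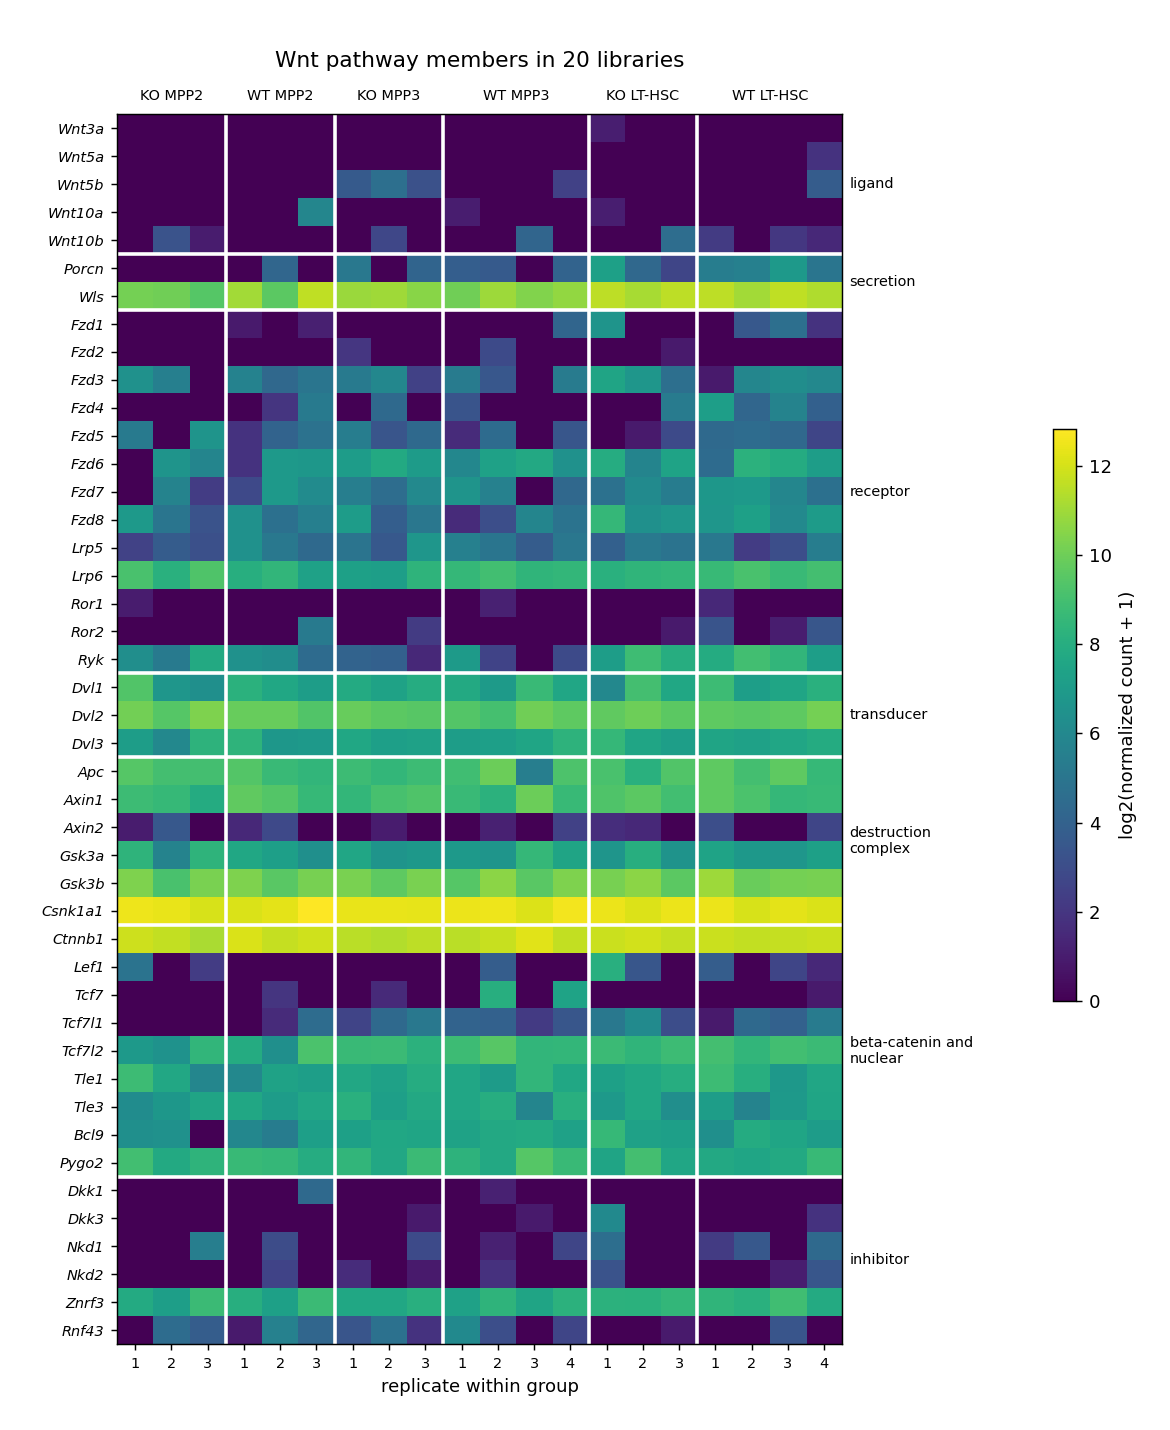
Heat map of log2(normalized count + 1) of the 44 members (rows, by role) in 20 libraries (columns, by group). The rows of Ctnnb1 and Csnk1a1 are bright in every library, the ligand rows are dark in most, and Ryk is darker in the MPP3 columns than in the LT-HSC columns.

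The next comparison asked how the pathway differs between the progenitors and the stem cells, with KO and WT weighted equally. Differences are log2 fold changes of log2(value + 1), tested in limma over 17160 genes, of which 32 were members; a gene was called at a Benjamini-Hochberg adjusted p under 0.05. In MPP3 relative to LT-HSC, 1 member was called, the receptor Ryk, which was lower in MPP3. In MPP2 relative to LT-HSC, 3 members were called and all were lower in MPP2: both secretion genes, Porcn and Wls, and the TCF factor Tcf7l1. In MPP2 relative to MPP3, 1 member was called, Ryk, which was higher in MPP2.

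Ryk, a Wnt-binding receptor with an inactive kinase domain, is on the plus strand of chromosome 9, from 102834917 to 102908305 (GRCm38). Its normalized count was 15.7, 14.2 and 1.82 in KO MPP3 and 128, 5.03, 0 and 6.31 in WT MPP3, against 139, 463 and 256 in KO LT-HSC and 240.0, 490.0, 348 and 147 in WT LT-HSC. All 7 MPP3 libraries lay below all 7 LT-HSC libraries, and WT MPP3 replicate 1 stood close to the LT-HSC range. The mean was 24.5 ± 46.1 in MPP3 and 298 ± 141 in LT-HSC (SD, n = 7 each). The ratio of LT-HSC to MPP3 means was 12.2, and 41.5 without WT MPP3 replicate 1. The log2 fold change was -4.92 (SE 0.84, limma adjusted p = 0.000877). A difference of mean log2 values can exceed the log2 ratio of the means where libraries of the lower group differ widely, as they did in MPP3. Members whose groups did not overlap numbered 2 in this comparison, both lower in MPP3, against 2.6% of all genes tested. The 1 called member is 3.12% of 32, against 7.4% of all genes called in either direction and 4.18% called lower. Within WT libraries Ryk was called (log2 fold change -5.01, limma adjusted p = 0.0126), and within KO libraries its log2 fold change was -4.84 (limma adjusted p = 0.0597).

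MPP2 lay between the other populations for Ryk, with 80.0, 36.4 and 223 in KO MPP2 and 88.3, 78.1 and 21.3 in WT MPP2. These libraries overlapped both LT-HSC and MPP3. Relative to MPP3 the log2 fold change was 2.97 (SE 0.87, limma adjusted p = 0.0467), with 2.24% of all genes called higher in MPP2. This call was lost in 33 of 39 alternative settings, including 17 of the 20 fits that left out 1 library, and its adjusted p ran up to 0.641. Relative to LT-HSC the log2 fold change of Ryk in MPP2 was -1.96 (SE 0.87, limma adjusted p = 0.186).

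Wls, the carrier that takes acylated Wnt proteins to the plasma membrane, is on the plus strand of chromosome 3, from 159839672 to 159938664. Its normalized count was 1119, 1043 and 694 in KO MPP2 and 2144, 779 and 3131 in WT MPP2, against 3016, 2293 and 3002 in KO LT-HSC and 2945, 2137, 3110 and 2541 in WT LT-HSC. The KO MPP2 libraries were all below the LT-HSC range, while WT MPP2 replicate 3, the library with the high Ighm count, was above it. The mean was 1485 ± 959 in MPP2 (SD, n = 6) and 2721 ± 392 in LT-HSC (SD, n = 7). The log2 fold change was -1.09 (SE 0.25, limma adjusted p = 0.0145). Without the 3 libraries that stood apart it was -1.28 (limma adjusted p = 0.0152). Within KO libraries it was -1.56 (limma adjusted p = 0.046) and within WT libraries -0.61 (limma adjusted p = 0.513).

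MPP3 had Wls values of 1874, 2014 and 1477 in KO and 1069, 1999, 1358 and 1694 in WT. None of these reached the lowest LT-HSC library, but the log2 fold change, -0.73 (SE 0.24), missed the threshold in limma at an adjusted p of 0.0817. It passed with limma on the compared groups alone (adjusted p = 0.00516), with voom (adjusted p = 0.0471) and with DESeq2 (adjusted p = 0.0318).

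Porcn, the enzyme that attaches the lipid Wnt proteins need for secretion, is on the minus strand of the X chromosome, from 8193848 to 8206525. It had 0 reads in all 3 KO MPP2 libraries, and normalized counts of 0, 18.01 and 0 in WT MPP2. In LT-HSC it had 158, 19.3 and 5.45 in KO and 42.1, 46.5, 120 and 30.3 in WT. Reads were thus found in 1 of 6 MPP2 libraries and in 7 of 7 LT-HSC libraries, and only WT MPP2 replicate 2 reached the LT-HSC range. With a floor of 3 counts over the group, Porcn was at least 64.7-fold lower in KO MPP2 than in KO LT-HSC, and at least 13.2-fold without KO LT-HSC replicate 1 or 42.0-fold without KO MPP2 replicate 2. It was 9.95-fold lower in WT MPP2 than in WT LT-HSC, and that fold was 6.61 without WT LT-HSC replicate 3, 6.63 without WT MPP2 replicate 1 or 3, and at least 38.7 without WT MPP2 replicate 2. Floors and such bounds cover counting error only. The log2 fold change was -4.54 (SE 1.02, limma adjusted p = 0.0129). Without the 3 libraries that stood apart the adjusted p was 0.0826, and it missed the threshold within KO (0.111) and within WT (0.175) libraries alone. MPP3 lay between, with 34.6, 0 and 16.4 in KO and 13.1, 11.3, 0 and 16.2 in WT.

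Tcf7l1, a TCF factor known mainly as a repressor of Wnt targets, is on the minus strand of chromosome 6, from 72626378 to 72789254. It too had 0 reads in every KO MPP2 library, with 0, 2.00 and 22.4 in WT MPP2. LT-HSC had 33.8, 69.4 and 7.26 in KO and 0.916, 19.9, 14.9 and 39.3 in WT, so the populations overlapped. Tcf7l1 was at least 39.1-fold lower in KO MPP2 than in KO LT-HSC, and at least 21.8-fold without KO LT-HSC replicate 2 or 25.4-fold without KO MPP2 replicate 2. The log2 fold change over both genotypes was -3.19 (SE 0.84, limma adjusted p = 0.0282). In 15 of 39 settings Tcf7l1 was no longer called, including a pseudocount of 16 (limma adjusted p = 0.0652) and the compared groups alone (limma adjusted p = 0.07). It was also lost on leaving out any 1 of 7 libraries: KO LT-HSC replicates 1 and 2, WT LT-HSC replicates 2, 3 and 4, and WT MPP2 replicates 1 and 2. Its exons overlap 179 bases of Gm15401 on the opposite strand, and the sources used here do not say whether reads were counted by strand.

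**Figure D2:**
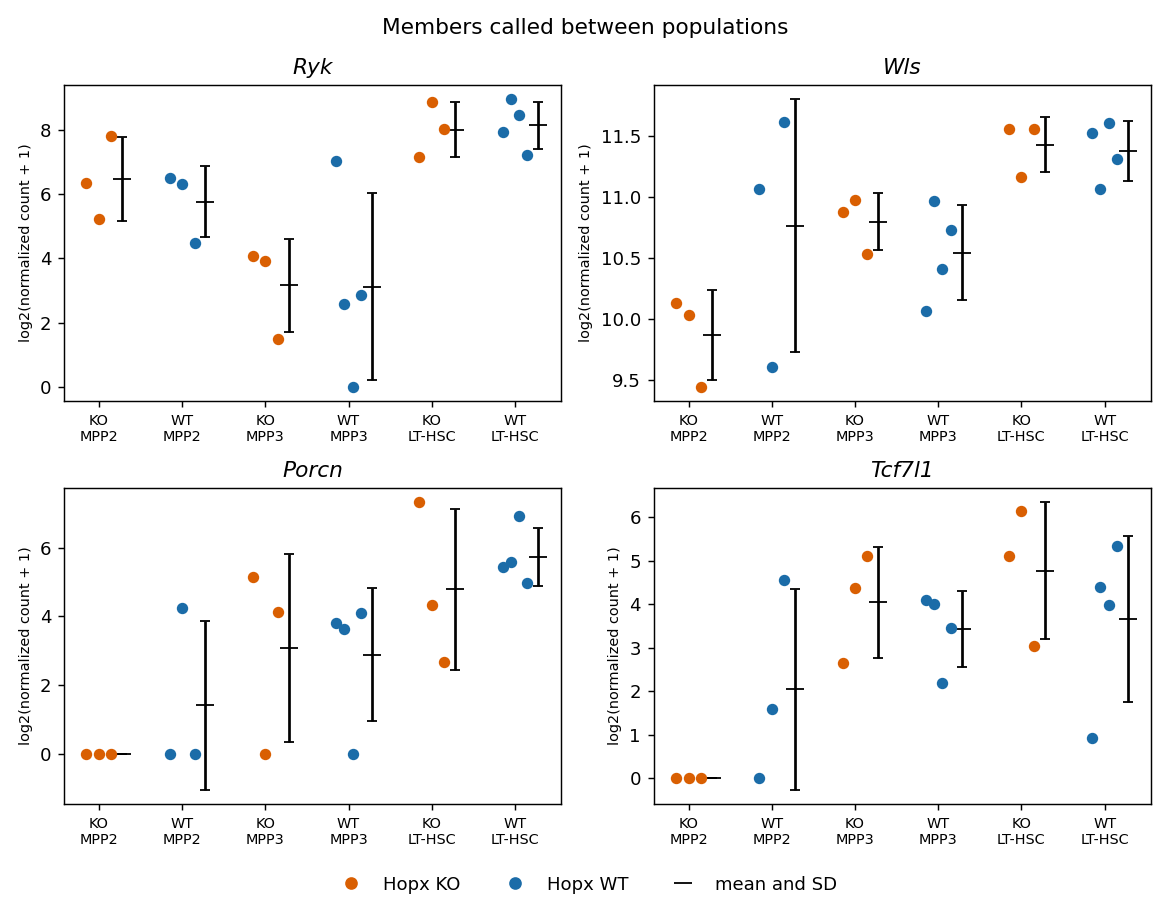
Normalized count on a log2(value + 1) scale of the 4 members called between populations, with 1 point per library, and the mean and SD of each group beside the points. Ryk is lowest in MPP3, and Porcn and Tcf7l1 lie at 0 in all 3 KO MPP2 libraries. Wls has its highest group means in LT-HSC, and WT MPP2 replicate 3 alone lies above the LT-HSC range.

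The 3 members called lower in MPP2 than in LT-HSC are 9.38% of 32, against 5.08% of all genes called lower and 7.32% called in either direction. Of the 32 members tested, 25 lay below 0, with a median log2 fold change of -0.45, where 57.8% of all genes lay below 0 with a median of -0.11. With the member read in no MPP2 library set at its bound, the median was -0.50. Between MPP3 and LT-HSC 21 members lay below 0, with a median of -0.19 against -0.0004 for all genes. Between MPP2 and MPP3 18 lay below 0, with a median of -0.05 against -0.09. Of the 10 receptors tested, 9 lay below 0 in MPP2 relative to LT-HSC, with a median of -1.72, and 0 were called.

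The promoters of the called members are shown since TCF/LEF factors bind a known core motif, and 3 of the 4 called members have a RefSeq promoter entry. Each sequence runs 5′ to 3′ along the gene's own strand, from 250 bases before to 50 bases after the start (RefSeq, GRCm38.p6), with the TCF core CTTTG, or CAAAG on the other strand, in capitals. The windows are chr3:159839400-159839699 (plus strand) for Wls, chr9:102834670-102834969 (plus strand) for Ryk and chr6:72788996-72789295 (minus strand) for Tcf7l1.
Wls: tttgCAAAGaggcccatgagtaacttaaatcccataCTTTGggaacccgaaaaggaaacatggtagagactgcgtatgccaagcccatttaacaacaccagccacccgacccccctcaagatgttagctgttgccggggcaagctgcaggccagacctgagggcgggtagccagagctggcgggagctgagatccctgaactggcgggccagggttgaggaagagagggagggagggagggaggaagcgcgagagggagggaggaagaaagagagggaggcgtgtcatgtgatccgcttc
Ryk: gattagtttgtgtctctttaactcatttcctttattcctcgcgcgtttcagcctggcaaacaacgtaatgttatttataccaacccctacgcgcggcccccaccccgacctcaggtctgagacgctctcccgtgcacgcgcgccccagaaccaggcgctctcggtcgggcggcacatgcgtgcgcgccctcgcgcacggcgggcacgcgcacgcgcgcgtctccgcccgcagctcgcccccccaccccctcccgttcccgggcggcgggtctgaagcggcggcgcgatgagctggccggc
Tcf7l1: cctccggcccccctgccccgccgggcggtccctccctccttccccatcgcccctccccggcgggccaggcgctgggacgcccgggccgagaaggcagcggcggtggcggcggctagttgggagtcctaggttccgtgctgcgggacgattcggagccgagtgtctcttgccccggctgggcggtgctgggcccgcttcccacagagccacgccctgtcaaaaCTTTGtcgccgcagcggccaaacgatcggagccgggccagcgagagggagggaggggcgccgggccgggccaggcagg
The Wls window held 2 cores and 58% G or C, and the Ryk window none and 67.7%. The Tcf7l1 window held 1 core, 28 bases before the RefSeq start, and 75.3% G or C. By the gene coordinates given above Tcf7l1 starts at 72789254, so by those coordinates this core lies within the gene. The core was found on either strand in 53.9% of 32851 RefSeq promoters and in 15 of the 30 members with an entry. The longer form CTTTGAT, which contains the core, was found in 3.73% of promoters and in 1 of 30 members, the ligand Wnt5b. The percentages are per promoter window, while a member with several windows counts if any of them matches. Among the Wnt5b windows only chr6:119449337-119449636 held the longer form. These are matches of letters in a window and say nothing of whether a factor binds.

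Other members had small p-values between populations without being called. Fzd8, a Frizzled receptor, was lower in MPP3 than in LT-HSC by -2.41 on the log2 scale (SE 0.73, limma adjusted p = 0.0523), on 2.02 to 135 in MPP3 and 63.7 to 370 in LT-HSC. Tcf7l2, the TCF factor with the most reads, had 84.1 to 592 in MPP2 and 338 to 511 in LT-HSC (log2 fold change -1.15, SE 0.38, limma adjusted p = 0.0711). Against 300 to 727 in MPP3, its log2 fold change in MPP2 was -1.12 (SE 0.38, limma adjusted p = 0.0879). The co-activator Bcl9 had 0 to 149 in MPP2, below all 7 MPP3 libraries at 155 to 225 (log2 fold change -2.30, SE 0.78, limma adjusted p = 0.0907), with 1.45% of all genes lower without overlap. Against LT-HSC, at 83.3 to 384, its log2 fold change in MPP2 was -2.25 (SE 0.78, limma adjusted p = 0.0902). Tcf7l1 in MPP2 relative to MPP3 had -2.72 (SE 0.84, limma adjusted p = 0.0611). The ubiquitin ligase Rnf43, which removes Frizzled receptors from the surface, had reads in 5 of 6 MPP2 and 2 of 7 LT-HSC libraries, and its log2 fold change was 2.60 (SE 1.07, limma adjusted p = 0.153).

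The comparison of KO with WT asked whether loss of Hopx went with a change in pathway transcripts, and no member was called in any population. The count was 0 of 32 in MPP2, against 0.0117% of all genes, and 0 in MPP3 and in LT-HSC, against 0.00583% of all genes in each. Averaged over the populations 0 members were called, against 0.0117% of all genes, and 0 members and 0 genes differed between populations in their KO effect. At an unadjusted p under 0.05 there were 3 members in MPP2, 2 in MPP3, 1 in LT-HSC and 0 in the average, against 7.88, 2.02, 2.66 and 5.03% of all genes. For a KO effect that differs between populations there were 2 members, against 3.07% of all genes. edgeR also called 0 members in each of these comparisons, and DESeq2 called Fzd1 in MPP2, in MPP3 and in the average. Fzd1 had 0 reads in all KO MPP2 and KO MPP3 libraries, where WT MPP2 had 0.874, 0 and 1.18 and WT MPP3 had 0, 0, 0 and 17.1.

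**Figure D3:**
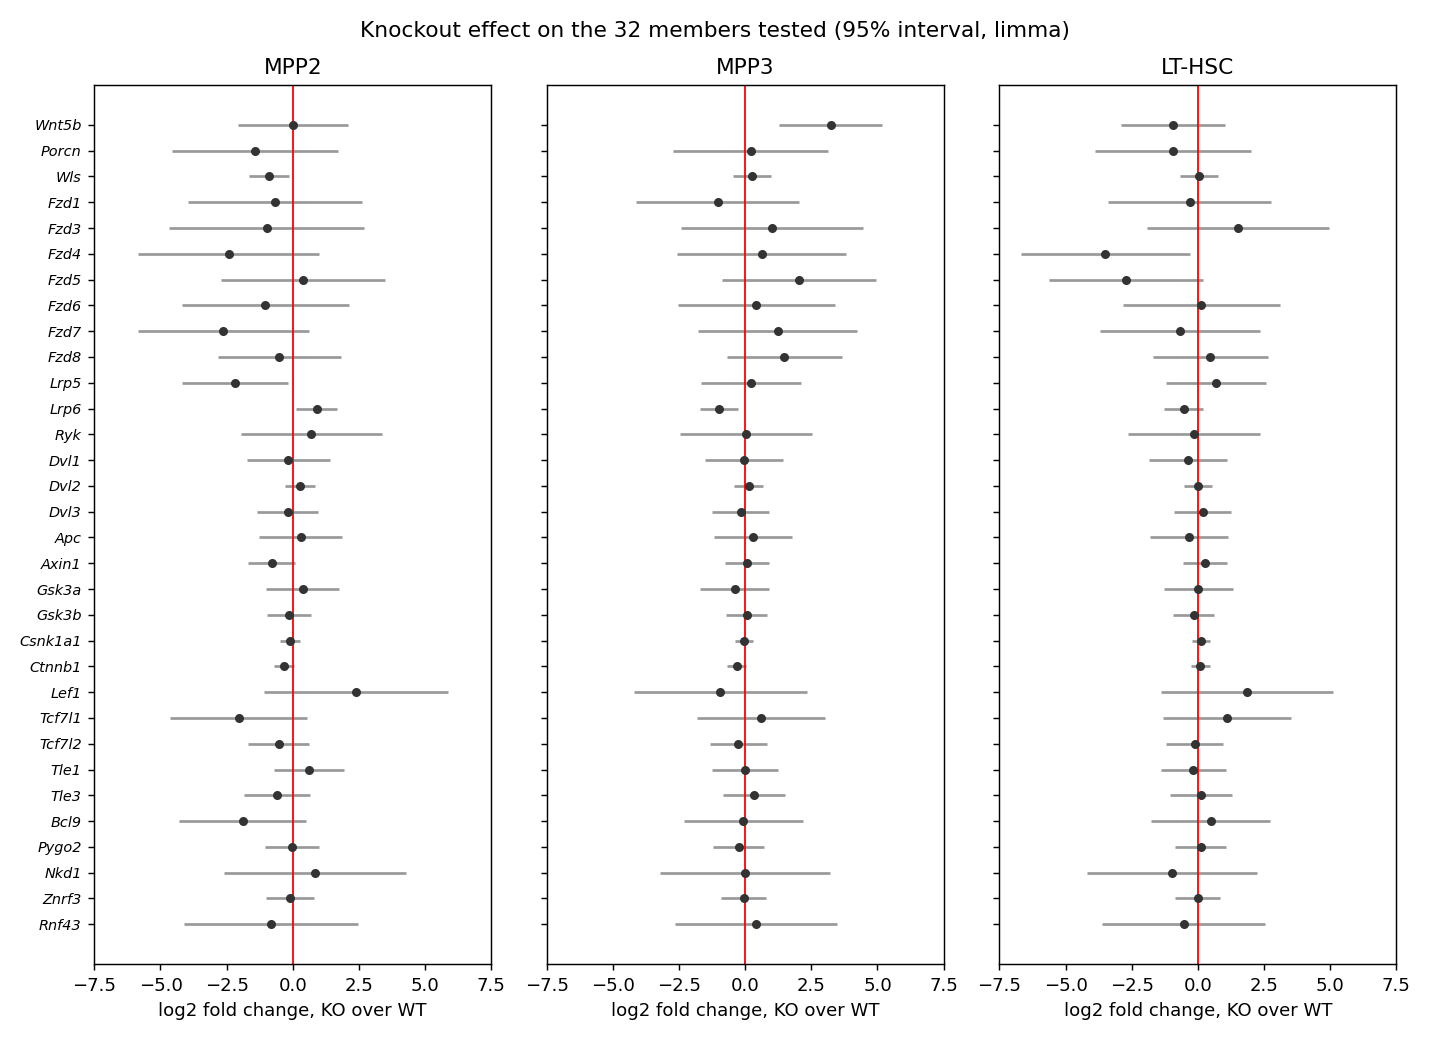
Log2 fold change of KO over WT (points) with its 95% interval (bars) for the 32 members tested, in MPP2, MPP3 and LT-HSC. Intervals are narrow for Ctnnb1, Csnk1a1 and Dvl2 and wide for the Frizzled receptors, Lef1 and Nkd1.

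How firmly a KO effect is bounded differed between members. For Ctnnb1, KO minus WT averaged over the populations was -0.19 on the log2 scale (95% interval -0.40 to 0.03, limma adjusted p = 0.857), and for Csnk1a1 -0.01 (-0.22 to 0.20). Ctnnb1 had 3727, 3193 and 2352 in KO MPP2 against 4346, 3366 and 3755 in WT MPP2, and 2935, 2568 and 2986 in KO MPP3 against 2889, 3391, 4897 and 3241 in WT MPP3. In LT-HSC it had 3522, 3960 and 3344 in KO against 3530, 3184, 3271 and 3551 in WT, and the genotypes overlapped in all 3 populations. The averaged interval was -0.18 to 0.45 for Dvl2, -0.53 to 0.38 for Gsk3b, -0.64 to 0.34 for Axin1 and -0.56 to 0.45 for Znrf3, the ligase related to Rnf43. For thinly read members it was far wider, such as -1.52 to 2.56 for Fzd3 and -0.82 to 3.03 for Lef1, so changes of that size were not detectable at this depth and replication.

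Lrp6, the main co-receptor of canonical Wnt signalling, had the smallest p for a KO effect that differs between populations. It had 559, 277 and 627 in KO MPP2 against 267, 350.2 and 158 in WT MPP2. MPP3 had 153, 144 and 320 in KO against 372, 499, 330 and 353 in WT, and LT-HSC had 278, 333 and 356 in KO against 396, 558, 415 and 501 in WT. KO libraries lay below all WT libraries in MPP3 and in LT-HSC, as did 1.82 and 3.02% of all genes, and overlapped them in MPP2 with the higher mean. The log2 fold change was 0.90 in MPP2 (SE 0.37, limma adjusted p = 0.594), -0.99 in MPP3 (SE 0.35, limma adjusted p = 1) and -0.53 in LT-HSC (SE 0.35, limma adjusted p = 1). The test that the effect differs gave an unadjusted limma p of 0.00471 and an adjusted p of 1, and without the 3 libraries that stood apart an unadjusted p of 0.032.

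Wnt5b, a ligand known for signalling apart from beta-catenin, had the smallest p of any member in KO against WT. It was read in all KO MPP3 libraries, at 11.5, 24.6 and 8.18, and in 1 of 4 WT MPP3 libraries, at 4.51. The groups did not overlap, as for 2.11% of all genes higher in KO MPP3. The log2 fold change was 3.23 (SE 0.93, unadjusted p = 0.00273, limma adjusted p = 1), and 0.82 with a pseudocount of 16. Elsewhere Wnt5b was read in WT LT-HSC replicate 4 alone, at 12.5, which is the library without Hopx reads. Its log2 fold change was 1.76 in MPP3 relative to LT-HSC (SE 0.66, limma adjusted p = 0.134), but -0.32 within WT libraries, and -2.23 in MPP2 relative to MPP3 (SE 0.68, limma adjusted p = 0.0567). The knockout effect on Wnt5b differed between populations at an unadjusted limma p of 0.0138 and an adjusted p of 1.

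The remaining members of small p in KO against WT were the receptors Lrp5, Fzd4 and Fzd5 and the carrier Wls. Lrp5, the paralogue of Lrp6, had 4.76, 12.4 and 7.86 in KO MPP2, below 87.4, 34.0 and 20.1 in WT MPP2, as did 3.85% of all genes (log2 fold change -2.19, SE 0.96, limma adjusted p = 0.61). In MPP2 the log2 fold change of KO over WT for Wls was -0.90 (SE 0.37, limma adjusted p = 0.589). Fzd4 had 0, 0 and 39.0 in KO LT-HSC against 143, 18.04, 53.1 and 14.3 in WT LT-HSC (log2 fold change -3.50, SE 1.52, limma adjusted p = 1). Fzd5 had 0, 0.878 and 6.35 in KO LT-HSC against 20.1, 21.8, 19.1 and 5.35 in WT LT-HSC (log2 fold change -2.72, SE 1.38, limma adjusted p = 1). The genotypes overlapped for Wls, Fzd4 and Fzd5, and for both Frizzled genes the WT library nearest to KO was replicate 4, which lacks Hopx reads.

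**Figure D4:**
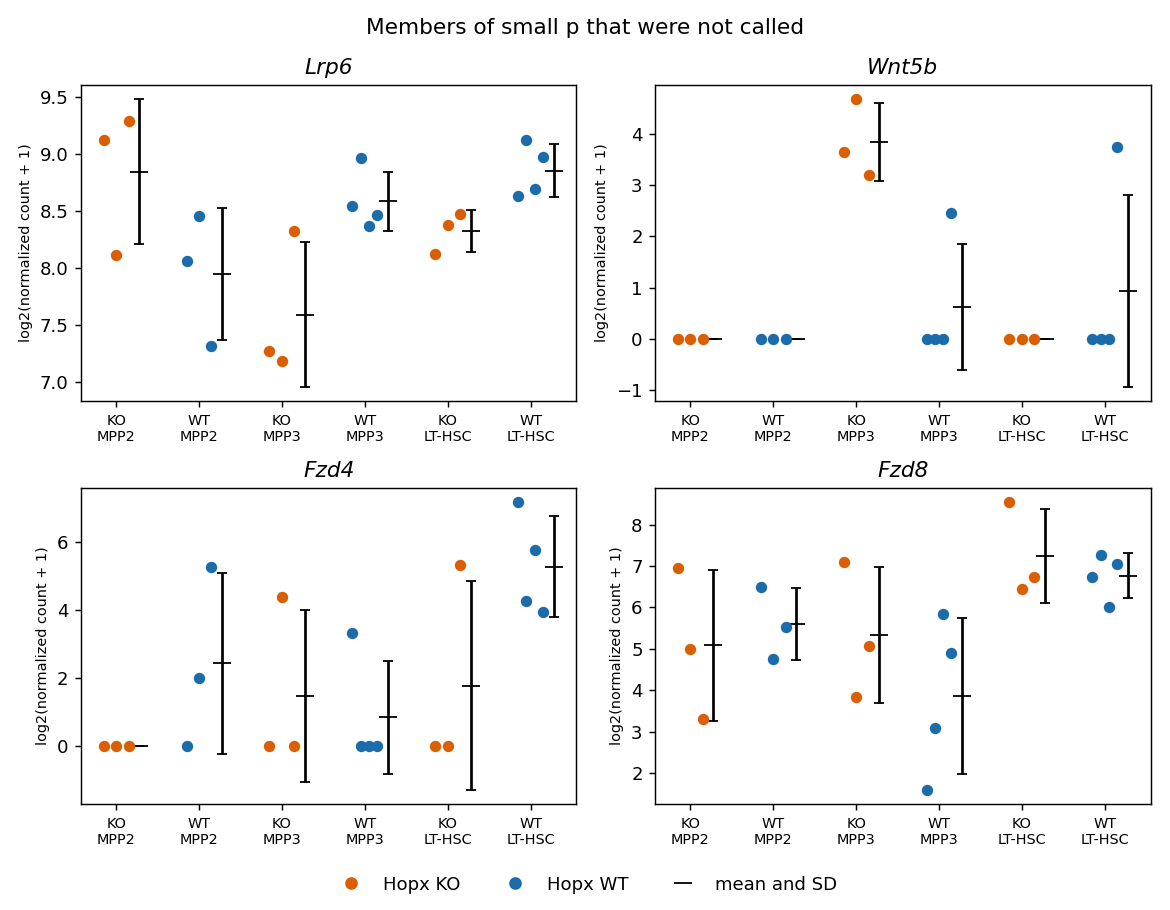
Normalized count on a log2(value + 1) scale of Lrp6, Wnt5b, Fzd4 and Fzd8, with 1 point per library and the mean and SD of each group. Lrp6 is lower in KO than in WT in MPP3 and LT-HSC without overlap, Wnt5b is read in all 3 KO MPP3 libraries, and none of these passed the test.

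Over all members, KO values lay on both sides of WT values. In MPP2, the median log2 fold change over the 32 members was -0.26 with 22 below 0, where that of all genes was -0.10 with 57.9% below 0. In MPP3 it was 0.07 with 14 below 0, against 0.03 and 45.8% for all genes. In LT-HSC it was 0.01 with 15 below 0, against -0.03 and 52.8%. In MPP2, 7 of 10 receptors lay below 0 (median -0.83), and in MPP3 2 of 10 (median 0.52), so the receptors had no common direction across populations. The 5 destruction complex genes tested had medians of -0.09, 0.06 and 0.01 in MPP2, MPP3 and LT-HSC, and the 3 Dishevelled genes -0.16, -0.05 and 0.01.

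The 12 members that did not pass the expression filter were Wnt3a, Wnt5a, Wnt10a, Wnt10b, Fzd2, Ror1, Ror2, Axin2, Tcf7, Dkk1, Dkk3 and Nkd2. They include 4 of the 5 ligands. Wnt3a had 1 read and Wnt5a 3 reads in all 20 libraries together, and Wnt10b had 70 reads in 8 libraries. Axin2, a target of beta-catenin that feeds back on the pathway and is widely used as its reporter, had 46 reads in 11 libraries and at most 10.7 in any. Axin2 was read in 2 of 3 KO and 2 of 3 WT MPP2 libraries, in 1 of 3 KO and 2 of 4 WT MPP3 libraries, and in 2 of 3 KO and 2 of 4 WT LT-HSC libraries. The receptor tyrosine kinase genes Ror1 and Ror2 had 4 reads in 3 libraries and 58 reads in 6 libraries. Tcf7 had 404 reads in 5 libraries. Of the 12 members, 11 had reads in 8 libraries or fewer. None of the 12 was in the main fit, so a difference between genotypes in these members was not assessed there.

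Of 157 further pathway genes in the table, 108 were tested. None was called in KO against WT, in any population or in the average, by limma. In MPP3 relative to LT-HSC 9 were called, or 8.33%, with 4 higher and 5 lower. Those called higher included the transcription factor Sox4, at 4595 ± 181 in KO MPP3 and 5067 ± 1005 in WT MPP3 against 2022 ± 560 in KO LT-HSC and 2110 ± 720 in WT LT-HSC (SD, n = 3 KO and 4 WT; log2 fold change 1.26, SE 0.22, limma adjusted p = 0.0012). Of 12 further Wnt target genes tested, Myc (log2 fold change 0.82) and Cd44 (0.90) were called higher in MPP3 and the Notch ligand Jag1 (-2.77) lower. The median log2 fold change over those 12 was -0.0068. The Frizzled partner Tspan12 (-4.13) and the co-repressor Tle6 (-1.49) were also called lower in MPP3.

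In MPP2 relative to LT-HSC 10 of the 108 were called, or 9.26%, and all were lower in MPP2, against 5.08% of all genes called lower. They held 3 receptor genes, Fzd9, Lgr4 and Tspan12, the nuclear factors Tle2 and Bcl9l, the calcium-branch genes Nfatc2, Plcb2 and Camk2d, and Sfrp1 and Jag1. Fzd9 had reads in 1 of 6 MPP2 libraries, at 16, and 19.1 to 133 in LT-HSC (log2 fold change -5.22, SE 0.86, limma adjusted p = 0.00176). The secreted decoy Sfrp1 had 0 reads in 6 of 6 MPP2 libraries and 33.9 to 233 in LT-HSC, at least 186-fold lower (limma adjusted p = 3.49e-06). In MPP2 relative to MPP3 9 were called, or 8.33%, with Prkca, Tle6 and Nlk higher and Sox4, Nfatc1, Fzd9, Bcl9l, Camk2d and Tle4 lower in MPP2. In either direction, 7.32% of all genes were called in MPP2 against LT-HSC, 7.4% in MPP3 against LT-HSC and 6.88% in MPP2 against MPP3.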

How the data were processed

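RNA was sequenced in 20 libraries. Per the submitters' processing notes, the authors used TopHat2 2.1.1 for alignment, GRCm38 as genome, HTSeq 0.11.2 for counting and DESeq for scaling. The deposited signal is each gene's count divided by 1 size factor per library. Dividing by the value of 1 read gave whole reads for 100% of values (tolerance 1e-06). The 5 summary rows of entries that were not assigned to a gene, 78.6 to 81.5% of all entries, were left out. Symbols came from GENCODE M21, which matched 45143 of 45706 identifiers, and exons of 11 of the 44 members overlap another gene on the opposite strand.

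The members and lists were chosen with earlier results of these data known. Groups came from the labels, and replicate numbers follow accession order only. Within-group pairs of libraries differed by far more than counting error (chi-square per gene of 30.8 or more over 24 pairs). The main test was limma 3.58.1 (R 4.3.3, trend and robust) on log2(value + 1), with 6 group means over 20 libraries and 17160 genes kept by edgeR's filter. Since whole reads were recovered, edgeR 4.0.16 and DESeq2 1.42.0 were run as alternatives, with edgeR also on 18 libraries because 1 read is worth nearly 1 in the other 2. The limma script was tested on simulated data. Named members were those called in any of the 8 comparisons and the 3 of smallest p among those not called in each. Members given in other sentences were chosen after their values were seen.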

Additional observations from a re-analysis of the deposited data

Results flagged for a closer look

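In the 28 WT groups of 4 libraries examined over the 14 named members, 7 values lay far from the other 3 libraries of their group by Dixon's test, and chance marks about 1 in 20 groups. Ryk in WT MPP3 replicate 1 had a normalized count of 128 where the other libraries of the group had 0 to 6.31. In the same library Rnf43 had 66.6 and Fzd4 9.08, against 0 to 7.54 and 0. Wnt5b had 12.5 in WT LT-HSC replicate 4 and 4.51 in WT MPP3 replicate 4, with 0 in the other libraries of each group. Fzd5 had 5.35 in WT LT-HSC replicate 4, below the others at 19.1 to 21.8. Rnf43 had 9.55 in WT LT-HSC replicate 3, with 0 in the others. Many of these members have few reads, and a group with reads in 1 library of 4 is always marked.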

How the results depend on the processing

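No replicate block was possible for KO against WT because the labels give no shared replicate numbers. For the populations, 12 libraries were taken as 4 runs of 3 consecutive title numbers. Each of these runs holds 1 library of each population, of 1 genotype and 1 inferred sex. Title numbers 101 to 106 and 115 to 120 follow on without a gap, so some runs are cuts of longer series. Numbers 86 to 88 also hold 1 library of each population, but of both genotypes and both inferred sexes, and were not used. They are WT LT-HSC replicate 4, KO MPP3 replicate 3 and KO MPP2 replicate 3. The labels do not say that a run is 1 animal. Deviations from group means correlated at 0.018 to 0.318 over the 12 pairs within runs, over 0.1 in 8 of 12. With the run as replicate block these 12 libraries gave 2 members in MPP3 against LT-HSC (Ryk and Fzd8), 1 in MPP2 against LT-HSC (Wls) and 0 in MPP2 against MPP3. Without the block the same 12 libraries gave 0 in all 3, with Ryk in MPP3 against LT-HSC at an adjusted p of 0.0579. The counts of members called were recomputed under 39 settings for each population comparison, and the fit on the compared groups alone cannot differ for the KO average and the test of differing KO effects. In KO against WT, DESeq2 called 1 member (Fzd1) in MPP2, in MPP3 and in the average, and leaving out each library gave 0 to 0 in all 5 KO comparisons. In MPP3 against LT-HSC the count of 1 became 2 with a pseudocount of 16, with edgeR on 18 libraries, without libraries numbered 52 to 54, without the 3 libraries that stood apart or without the 5 high in neutrophil transcripts, 3 with voom or the compared groups alone, 4 with DESeq2 and 0 with KO libraries only. Leaving out 1 library gave 1 to 2. In MPP2 against LT-HSC the count of 3 became 5 with voom or the library-number range as covariate, 0 with WT libraries only and 1 with KO libraries only. Leaving out 1 library gave 2 to 4. In MPP2 against MPP3 the count of 1 became 0 with no expression filter, edgeR on 20 libraries, the compared groups alone, the library-number covariate, WT libraries only or without the 5 libraries high in neutrophil transcripts, 2 with voom or without libraries numbered 52 to 54, and 3 without the 3 libraries that stood apart. Leaving out 1 library gave 0 to 3. An unchanged count did not always mean the same member. With DESeq2, a pseudocount of 0.5 or sex as covariate, Tcf7l1 was called in MPP2 against MPP3 and Ryk was not. With KO libraries only, Wnt5b was called and Ryk was not. The 2 with voom were Wnt5b and Bcl9. The values of 1 genotype are contrasts within the fit of 20 libraries. The cause of these changes was not tested. Wnt5b reversed in the KO average to -0.41 with edgeR on 20 libraries, -0.53 on 18 and -0.18 with DESeq2, and in MPP3 against LT-HSC to -0.32 in WT libraries only. Of 1053 values of 29 named results, 948 kept direction and side of the threshold, 58 lost a call, 43 gained one and 4 reversed. The edgeR fit on 18 libraries, the removal of the 3 or 5 libraries and the runs were chosen after seeing the data. Libraries numbered 52 to 54 are WT only, so number and genotype cannot be told apart there. Low reads of ligands, Frizzled genes and Porcn limit what could be detected.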

Other observations

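Several thinly read members took most of their reads from 1 or 2 libraries. Tcf7 (TCF1), the factor of early T cell development, had 259 and 173 in replicates 2 and 4 of WT MPP3, and at most 3.00 in each of the other 18 libraries. The early lymphoid list summed to 40396 and 19464 in those libraries, and to 21729 and 21190 in the other WT MPP3 libraries, where Tcf7 was 0. The T cell gene Cd3e was 0 in every library but KO LT-HSC replicate 1, at 2.18. A list of 20 T and NK cell genes had 8 at 0 in each of WT MPP3 replicates 2 and 4. It had 12 and 17 at 0 in WT MPP3 replicates 1 and 3. Its sum was 8152 and 6100 in replicates 2 and 4, against 7721 and 10283 in replicates 1 and 3. The part of T or NK cell transcripts in the Tcf7 values was not tested.

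Lef1, a TCF family factor of lymphoid progenitors, had 276 in KO LT-HSC replicate 1 and at most 28.6 elsewhere. That library had a B-lineage sum of 5885, with Cd79a at 411 and Dntt at 599. Fzd1 (96.9) and Dkk3 (67.5) were also highest there. In WT MPP2 replicate 3, the library with the early lymphoid sum of 189600, mostly Ighm, Wnt10a (57.9), Ror2 (36.6) and Dkk1 (20.1) had their highest values. The part of these transcripts in the values was not tested. These members were picked out after their values were seen.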
